A study of Mus musculus with 12 samples.

Results

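Chemokines are small secreted proteins that draw leukocytes along a gradient, and bone-forming cells are among their sources in the skeleton. RNA levels of 10 chemokine genes were followed in mouse calvarial osteoblast cultures: Cxcl1, Cxcl2, Cxcl5, Cxcl9, Cxcl10, Cxcl12, Ccl2, Ccl5, Ccl7 and Cx3cl1. They were taken by gene symbol from the 25511 genes of the authors' table, and all 10 passed the filter on low counts, among 13603 genes tested. The cells came from the flat skull bones of neonatal C57Bl/6J mice, either labelled F2rl1 -/- (KO) or wild type (WT). F2rl1 encodes protease-activated receptor 2, a receptor that proteases switch on by cutting it. After 48 h of preculture the cells spent 4 days in BRFF-HPC1 medium with 20% fetal calf serum. Conditioned medium had first been kept for 48 h on MDA-PCa-2b, a human prostate cancer line that grows in bone as a bone-forming tumour, and unconditioned medium had not. The 4 groups were thus KO in conditioned medium, KO in unconditioned medium, WT in conditioned medium and WT in unconditioned medium, with 3 libraries each. The design asks what the tumour-conditioned medium changes and whether this depends on the receptor.

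Each library held 15023994 to 16956754 fragments, which are read pairs assigned to genes. Libraries 0 and 1 of unconditioned WT differed by less than the sampling noise (chi-square 759 on 15474 degrees of freedom, with 91.7% of genes equal to the last digit) and were counted as 1 sample, which leaves 2 distinct libraries in that group and 11 in all. One sample titled as a WT control carries the KO genotype label and was kept by its title. F2rl1 itself had 12 to 46 fragments in the libraries labelled KO and 14 to 25 in those labelled WT. These sums run over the whole gene and cannot show which part was deleted, so KO and WT are used here as labels. Library 0 of conditioned KO stood apart from libraries 1 and 2 (chi-square 1317502.4 on 15399 and 2083790.2 on 15470 degrees of freedom, against 202529.2 on 15334 between libraries 1 and 2). So did library 0 of unconditioned KO (893753.5 on 15212 and 1185739.4 on 15231, against 94766.2 on 15124). In conditioned WT, library 1 was the farther one from libraries 0 and 2 (577137.5 on 15325 and 988125.1 on 15347, against 270588.5 on 15361). Counts of called members are given with and without these 3 libraries, and each library whose removal changes a member's call is named with the member. The cultures expressed the collagens Col1a1 (100542 to 328342 fragments per library) and Col1a2 and the osteoblast factors Runx2 (1195 to 1411) and Sp7 (32 to 604). Among other listed osteoblast markers, Spp1 had 29518 to 177955 fragments and Alpl 178 to 1568, while Ibsp had 3 to 16, Phex 2 to 30 and Bglap 0 to 13. The late marker Dmp1 had 0 to 5 fragments and Sost had 0. Macrophage and myeloid markers were present, with a summed level of 51.5 to 129 CPM, fragments scaled to library depth, in conditioned KO, 54.9 to 83.6 in unconditioned KO, 112 to 146 in conditioned WT and 63.3 to 90.7 in unconditioned WT. In each group mean the entry shared by Lyz1 and Lyz2 made up most of this sum (44.3 to 86.7 CPM). Cd68 had 54 to 210 fragments, Ptprc 2 to 26 and Aif1 0 or 1. The part of these markers in the chemokine results was not tested. In bulk RNA, fewer cells of a type and less RNA per cell cannot be told apart.

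The 10 genes fall into families by the receptor they bind. Cxcl1, Cxcl2 and Cxcl5 act on Cxcr2 and recruit neutrophils, and their transcription is known to be driven by NF-kB. Ccl2 and Ccl7 act on Ccr2 and recruit monocytes, the cells from which osteoclasts also form. Cxcl9 and Cxcl10 are interferon-induced ligands of Cxcr3 on activated T cells. Ccl5 draws T cells and monocytes, Cxcl12 acts on Cxcr4 and the scavenger Ackr3, and Cx3cl1, which is made as a membrane protein, on Cx3cr1. Bone marrow stromal cells and osteoblasts are known for Cxcl12, which holds blood stem cells in the marrow.

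Genome positions (GRCm38, from the authors' table) place the CXC genes that bind Cxcr2 on the plus strand of chromosome 5, with Cxcl1 and Cxcl2 close together and Cxcl5 at a distance before them: Cxcl5 at chr5:90759298-90761625, Cxcl1 at chr5:90891245-90893115 and Cxcl2 at chr5:90903899-90905938. The Cxcr3 ligands lie further along on the minus strand, Cxcl9 at chr5:92321331-92328079 and Cxcl10 at chr5:92331841-92414627. The annotation places Cxcl10 alone at chr5:92346638-92348889, and the longer span in the table also covers Art3 on the opposite strand, whose exons overlap it. The libraries do not mark the strand, and Art3 had 0 to 18 fragments per library in its own entry. Cxcl10 itself had 9 to 15 in unconditioned KO, 12 to 20 in unconditioned WT, 11 to 46 in conditioned WT and 27 to 180 in conditioned KO. How far Art3 adds to the counts of Cxcl10 was not tested. Ccl2 (chr11:82035577-82037452) and Ccl7 (chr11:82045712-82047523) are neighbours on the plus strand of chromosome 11, and Ccl5 (chr11:83525779-83530518) lies on its minus strand. Cxcl12 is at chr6:117168535-117181368 and Cx3cl1 at chr8:94772180-94782426, both on the plus strand. Of the 50-base stretches of their transcripts, 5.84% were shared with another gene in Cxcl2 (mostly Cxcl3, a near copy), 3.59% in Cxcl10 (Art3), 0.693% in Cxcl5 and 0.472% in Cxcl9, and none in the other 6. These shares do not bound the error in the counts of Cxcl2 and Cxcl10, which also depends on the level of the other gene. How far Cxcl3 adds to the counts of Cxcl2 was not tested.

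Promoter sequences were available from RefSeq (GRCm38.p6) for Cxcl1, Cxcl2, Cxcl9, Cxcl10, Cxcl12 and Cx3cl1, as windows from 250 bases before to 50 bases after the gene start. The 250 bases before the start are printed for Cxcl1 and Cxcl2, which represent the Cxcr2 ligands, and for Cxcl10 and Cxcl9, the pair that rose most. Each reads 5′ to 3′ along the gene. Capitals mark the kB consensus, the DNA motif of NF-kB, and the interferon-type motif, GAAA followed by any 2 bases and GAAA again.
Cxcl1 promoter: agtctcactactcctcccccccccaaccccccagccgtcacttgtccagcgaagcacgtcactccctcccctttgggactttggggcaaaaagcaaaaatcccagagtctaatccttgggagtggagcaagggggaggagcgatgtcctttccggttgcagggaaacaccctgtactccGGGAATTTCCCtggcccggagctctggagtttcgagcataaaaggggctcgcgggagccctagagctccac
Cxcl2 promoter: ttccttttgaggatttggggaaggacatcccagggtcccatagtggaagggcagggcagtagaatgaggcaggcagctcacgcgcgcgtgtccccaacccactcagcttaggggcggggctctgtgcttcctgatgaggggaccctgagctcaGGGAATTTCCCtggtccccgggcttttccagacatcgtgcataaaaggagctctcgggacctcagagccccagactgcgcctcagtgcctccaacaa
Cxcl10 promoter: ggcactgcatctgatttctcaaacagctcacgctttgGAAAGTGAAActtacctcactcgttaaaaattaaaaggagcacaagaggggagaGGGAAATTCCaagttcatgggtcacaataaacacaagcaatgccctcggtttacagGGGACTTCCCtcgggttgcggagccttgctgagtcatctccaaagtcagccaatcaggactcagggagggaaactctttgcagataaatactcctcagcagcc
Cxcl9 promoter: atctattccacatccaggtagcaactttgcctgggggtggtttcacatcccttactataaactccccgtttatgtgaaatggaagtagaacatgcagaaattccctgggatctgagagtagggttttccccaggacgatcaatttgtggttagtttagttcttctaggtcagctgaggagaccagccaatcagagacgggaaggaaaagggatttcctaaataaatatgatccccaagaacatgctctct
The windows are chr5:90890995-90891244 (plus strand) for Cxcl1, chr5:90903649-90903898 (plus strand) for Cxcl2, chr5:92348890-92349139 (minus strand) for Cxcl10 and chr5:92328080-92328329 (minus strand) for Cxcl9. Cxcl1 and Cxcl2 each held the same stretch, GGGAATTTCCC, which matches the kB consensus on both strands with the matches offset by a base, and which begins 71 bases before the start in Cxcl1 and 97 bases before it in Cxcl2. Cxcl10 held separate kB matches, GGGAAATTCC and GGGACTTCCC, 159 and 103 bases before its start, and the interferon-type match GAAAGTGAAA 213 bases before it. The window of Cxcl9 held neither motif, nor did those of Cxcl12 and Cx3cl1. Searched on both strands, the kB consensus was present in 4.51% of 32851 promoter windows of the same length and the interferon-type motif in 3.44%. TGANTCA, the AP-1 motif, occurred in Cxcl9 (at base 31 after the start) and Cxcl10, against 7.81% of all windows, TATAAA in Cxcl9 and Cx3cl1, against 13.6%, and TTCNNNGAA in none of the 6, against 8.30%. A match describes the letters and is not evidence of a bound factor.

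Levels per transcript length (FPKM, fragments scaled by transcript length and library depth) spanned more than 4 orders of magnitude across the genes in unconditioned medium. In conditioned medium Ccl7 was the most abundant, with 270 ± 20.6 FPKM in KO and 252 ± 36.4 FPKM in WT (SD, n = 3 each). In unconditioned medium Cxcl5 led instead, with 262 ± 53.9 FPKM in KO (n = 3) and 381 ± 33.6 FPKM in WT (n = 2). Cxcl5 was second in conditioned medium, at 138 ± 10.2 FPKM in KO and 131 ± 30.6 FPKM in WT, and Ccl7 second in unconditioned medium, at 211 ± 42.7 FPKM in KO and 210 ± 22.8 FPKM in WT. Ccl7 and Cxcl5 overlapped between libraries in unconditioned KO, and in the other 3 groups they did not. Ccl2, Cxcl1 and Cxcl12 followed at 33.0 to 126 FPKM in the group means, and in each group the libraries of at least 1 of them overlapped with those of its neighbour in rank. Cx3cl1 held the sixth place in all 4 groups, with group means of 12.5 to 14.9 FPKM and no overlap with its neighbours. Ccl5, Cxcl2 and Cxcl10 had group means of 0.441 to 4.89 FPKM. Cxcl9 was lowest in every group, at 0.939 ± 0.759 FPKM in conditioned KO, 0.0147 ± 0.0128 in unconditioned KO, 0.102 ± 0.109 in conditioned WT and 0.0203 ± 0.0287 in unconditioned WT.

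**Figure D1:**
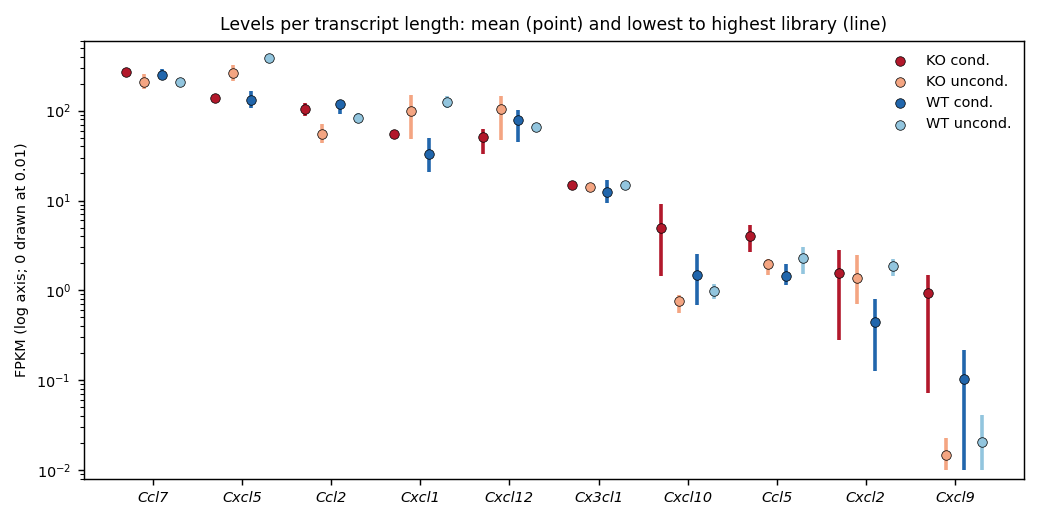
Levels of the 10 chemokine genes in FPKM on a log axis, with 1 colour per group, the mean as a point and the lowest to the highest library as a line (values of 0 are drawn at 0.01). Ccl7 stood at 270 and 252 FPKM in conditioned KO and WT, and Cxcl5 at 262 and 381 FPKM in unconditioned KO and WT, while Cxcl9 stayed under 1 FPKM in the mean of every group.

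The effect of conditioned medium averaged over both genotypes was called, at an adjusted p under 0.05, for 6 of the 10 chemokine genes, 4 higher and 2 lower. Over all genes 20.5% were called (10.4% higher and 10.1% lower). The neutrophil attractants Cxcl1 and Cxcl5 fell. The monocyte attractants Ccl2 and Ccl7 and the Cxcr3 ligands Cxcl9 and Cxcl10 rose. The remaining genes Cxcl2, Ccl5, Cxcl12 and Cx3cl1 did not pass the test. The members' median log2 change was 0.05, and that of all genes 0.02. The separate medium effects in KO and WT use the same libraries as this average and each other's fit, so they are given as parts of it and not as further support. In KO 4 members were called, 3 higher (Cxcl9, Cxcl10 and Ccl2) and 1 lower (Cxcl5), where 18.3% of all genes were called (9.68% higher and 8.58% lower). In WT 1 member was called, Cxcl5 lower, where 1.78% of all genes were (1.23% higher and 0.551% lower). Without conditioned KO library 0, 5 members were called in KO (44.9% of all genes), with Ccl5 added, 2 in WT (6.75%), with Cxcl1 added, and 6 on average (41.6%). Without unconditioned KO library 0, 5 members were called in KO (3101 genes in all, against 2484 with every library), with Cxcl12 added, 2 in WT (347 genes, against 242), with Cxcl1 added, and 3 on average (3327 genes, against 2787), with Cxcl9, Cxcl10 and Ccl7 lost. Without conditioned WT library 1 the members called were 4 in KO, 1 in WT and 5 on average, with Cxcl9 lost (2115, 79 and 2273 genes).

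Leaving out other libraries lowered the counts in KO over all genes, and most strongly where the library was a KO one. In KO, 0 members and 319 genes were called without conditioned KO library 1, 0 and 687 without conditioned KO library 2, 0 and 400 without unconditioned KO library 1, and 1 and 457 without unconditioned KO library 2. In WT, 0 members and 15 genes were called without conditioned WT library 0, and 0 members with 1 and 0 genes without unconditioned WT library 0 or 2. Where an unconditioned WT library is left out, the group has 1 sample, which is assumed to vary like the other groups, so a call lost there shows little about stability. On average the members called ranged from 2 to 6 over the 11 fits that left out a library, and the genes called from 1215 to 5652.

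The conditioned and unconditioned libraries did not overlap in CPM for 6 of the 10 genes in KO, against 31.2% of all genes. Cxcl9, Cxcl10, Ccl2, Ccl5 and Ccl7 were higher without overlap (15.8% of all genes) and Cxcl5 lower (15.4%). In WT 5 of the 10 did not overlap, against 42.5% of all genes, Ccl2 and Ccl7 higher (21.8%) and Cxcl1, Cxcl2 and Cxcl5 lower (20.6%). Over both genotypes together 2 of the 10 did not overlap, against 16.4% of all genes, Ccl2 higher (7.98%) and Cxcl5 lower (8.45%). Summed over the 10 genes, the level was 681 to 791 CPM in conditioned KO, 977 to 1070 in unconditioned KO, 715 to 815 in conditioned WT and 1130 to 1230 in unconditioned WT.

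Cxcl5, the most abundant Cxcr2 ligand here, fell in both genotypes. It stood at 240, 237 and 216 CPM in the conditioned KO libraries 0, 1 and 2, against 524, 431 and 366 CPM in the unconditioned KO libraries. In WT it stood at 216, 183 and 283 CPM in conditioned libraries, against 594 and 677 CPM in the distinct unconditioned libraries. All 6 conditioned libraries lay below all 5 unconditioned ones. The log2 change was -0.93 (SE 0.18, adjusted p = 0.0118) in KO and -1.48 (SE 0.20, adjusted p = 0.0137) in the WT cultures, and -1.21 (SE 0.13, adjusted p = 0.00076) on average, a 2.31-fold lower level. The average effect passed the test in each of 11 fits that left out a library, and the change lay between -1.30 and -1.13. The KO effect alone lost its call without conditioned KO library 1 or 2 or unconditioned KO library 1 (adjusted p = 0.0562, 0.0514 and 0.0513). The WT effect lost it without conditioned WT library 0 or either unconditioned WT library (adjusted p = 0.0745, 0.171 and 0.227), the last 2 with 1 sample left in that group.

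Cxcl1, which mouse cells release early in inflammation, fell on average, and its KO libraries varied more. Its level was 53.4, 54.7 and 44.6 CPM in conditioned KO, against 138, 92.9 and 43.9 CPM in unconditioned KO, where library 2 lay below all conditioned KO libraries. In WT it was 20.5, 25.7 and 45.3 CPM in conditioned libraries, against 99.2 and 128 CPM in unconditioned ones, with no overlap. On average Cxcl1 changed by -1.37 on the log2 scale (SE 0.29, adjusted p = 0.01), and it passed in each of the 11 fits without a library (-1.58 to -1.16). Neither genotype passed alone. The change was -0.85 (SE 0.39, adjusted p = 0.141) for KO cultures, and for WT cultures it was -1.90 (SE 0.43, adjusted p = 0.0569). The WT effect was called in 4 of the 11 fits, those without conditioned KO library 0, unconditioned KO library 0 or 2, or conditioned WT library 2 (adjusted p = 0.0263 to 0.0428), and with DESeq2 (-1.90, adjusted p = 0.000968), so it lies at the edge of the test. The authors' deposited table calls Cxcl1 and Cxcl5 changed by the medium in both KO and WT, each at q = 0.0016. Here and below, the deposited medium tests are per transcript. In WT they take unconditioned libraries 0 and 1 as separate replicates, which are counted here as 1 sample, so their WT calls are not further support.

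Cxcl2, the third ligand of this receptor, was rare. It had 5, 28 and 55 fragments in conditioned KO libraries, against 40, 14 and 11 in unconditioned KO libraries, and the groups overlapped. In WT it had 7, 2 and 13 fragments in conditioned libraries, against 24 and 33 in unconditioned ones, with no overlap. Its log2 change was 0.18 (SE 0.76, adjusted p = 0.889) in KO and, with a wide error, -1.99 (SE 0.91, adjusted p = 0.339) in WT. The authors' deposited table calls Cxcl2 changed by the medium in WT (q = 0.0187) and not in KO (q = 0.902). The KO value changed sign without conditioned KO library 2 (-0.54) or unconditioned KO library 1 (-0.04) or 2 (-0.15). The near copy Cxcl3, named here for the sequence that it shares with Cxcl2, had 8.89 ± 6.18 CPM in conditioned KO, 9.63 ± 3.49 CPM in unconditioned KO, 2.25 ± 2.30 CPM in conditioned WT and 14.8 ± 0.787 CPM in unconditioned WT.

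Ccl2, a main attractant of monocytes, was higher in conditioned medium. It stood at 79.1, 92 and 75.1 CPM in conditioned KO, against 62.9, 37.2 and 33.0 CPM in unconditioned KO, and at 117, 69.0 and 98.9 CPM in conditioned WT, against 59.1 and 67.4 CPM in unconditioned WT. All 6 conditioned libraries lay above all 5 unconditioned ones in CPM, with WT library 1 in conditioned medium the closest. In FPKM, conditioned KO library 0 (87.3) and conditioned WT library 1 (92.8) lay below unconditioned WT library 2 (93.7). Ccl2 changed by log2 0.89 (SE 0.25, adjusted p = 0.0397) in KO, 0.59 (SE 0.29, adjusted p = 0.379) in WT and, averaged over both, 0.74 (SE 0.19, adjusted p = 0.0241), 1.67-fold. The average effect kept its call in 5 of 11 fits without a library and lost it without conditioned KO library 1, unconditioned KO library 1 or 2, conditioned WT library 0 or either unconditioned WT library, with changes of 0.64 to 0.79 and adjusted p of 0.0508 to 0.104. The KO effect kept its call in 4 of 11, with changes of 0.71 to 1.22 over all 11. It lost the call without conditioned KO library 1 or 2, unconditioned KO library 1 or 2, conditioned WT library 2 or either unconditioned WT library (adjusted p = 0.0566 to 0.143). In the authors' deposited table Ccl2 is called in KO (q = 0.0016) and in WT (q = 0.0335).

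Ccl7, its neighbour on the chromosome and a ligand of the same receptor, rose by less. It had 206, 215 and 197 CPM in conditioned KO, against 143, 191 and 148 CPM in unconditioned KO, and 198, 167 and 218 CPM in conditioned WT, against 151 and 161 CPM in unconditioned WT. Within each genotype the conditioned libraries were the higher ones in CPM without overlap, while over both genotypes conditioned WT library 1 (167 CPM) lay below unconditioned KO library 1 (191 CPM). In FPKM the KO groups overlapped, with conditioned KO library 0 (250) below unconditioned KO library 1 (259). The average log2 change was 0.34 (SE 0.10, adjusted p = 0.0458), 1.26-fold. It was called in 3 of 11 fits without a library, those without conditioned KO library 0, unconditioned KO library 1 or conditioned WT library 1, and in the other 8 its change was 0.29 to 0.36 (adjusted p = 0.0650 to 0.163). The authors' deposited table calls no change of Ccl7 in KO (q = 0.320) or WT (q = 0.464).

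**Figure D2:**
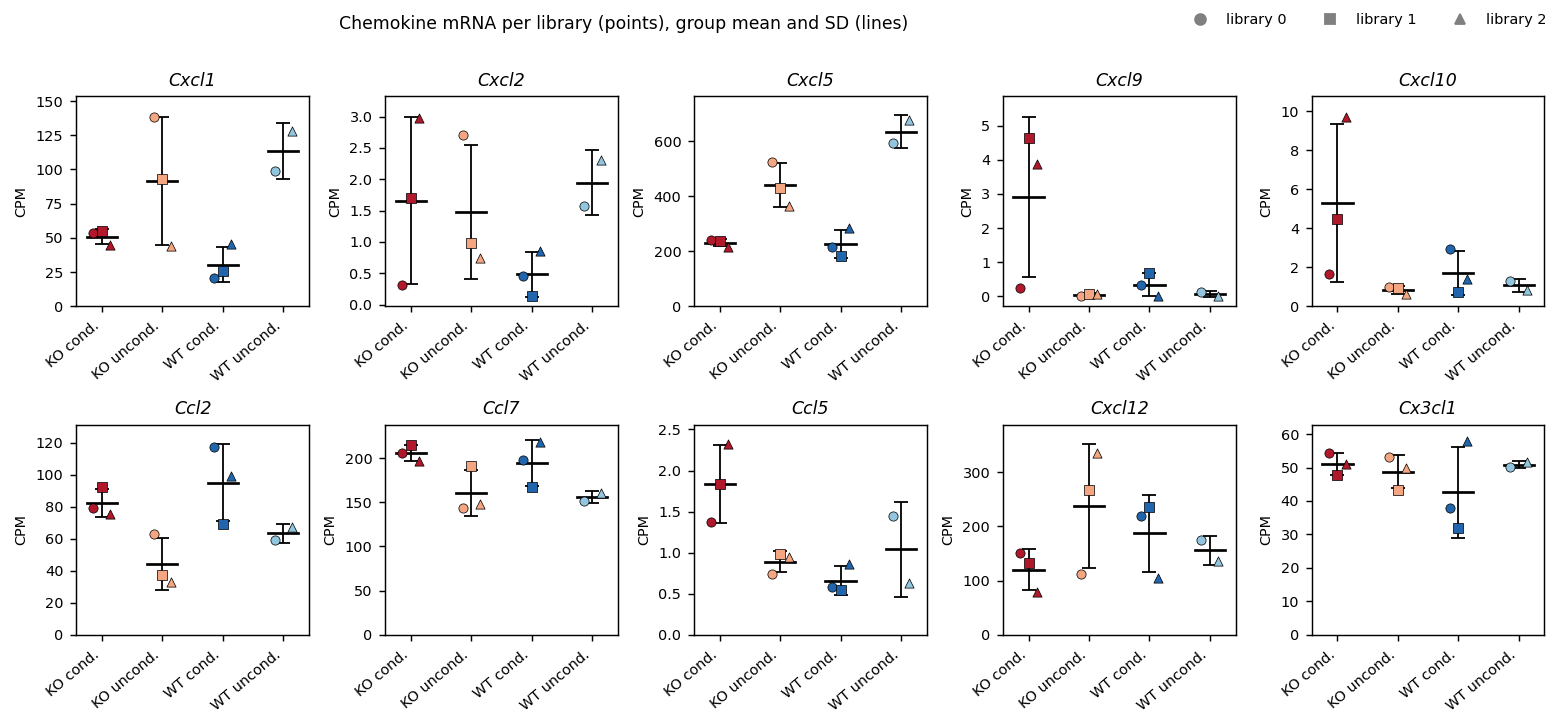
Level of each of the 10 chemokine genes in CPM (linear axis per gene), with 1 point per library, the marker shape giving the library number, and black lines for the group mean and SD. Groups run from conditioned KO to unconditioned KO, conditioned WT and unconditioned WT, and unconditioned WT has 2 distinct libraries. Cxcl5 was 183 to 283 CPM in the 6 conditioned libraries and 366 to 677 CPM in the 5 unconditioned ones, and the high Cxcl9 points are conditioned KO libraries 1 and 2.

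Cxcl9 and Cxcl10, the interferon-induced ligands of Cxcr3, had the largest log2 changes among the members in KO. Cxcl9 had 4, 76 and 72 fragments in conditioned KO libraries, against 0, 1 and 1 in unconditioned KO libraries. It had 5, 10 and 0 fragments in conditioned WT libraries, against 2 and 0 in unconditioned ones. The high values were thus those of conditioned KO libraries 1 and 2, while library 0 of that group, with 4, lay within the range of conditioned WT. Cxcl9 passed the filter on low counts only through conditioned KO, since no more than 1 library of the other groups held 10 fragments. Without that filter the KO value was 5.77 (adjusted p = 0.0278) and the average 3.97 (adjusted p = 0.0417). Summed over libraries, 152 fragments in conditioned KO stood against 2 in unconditioned KO, a depth-scaled ratio of 74.5 with a counting interval (95%, exact) of 20.3 to 621, and 15 in conditioned WT stood against 2 in unconditioned WT, a ratio of 5.10 (1.19 to 46.0). These intervals cover counting error only. The fitted log2 change was 5.77 (SE 1.41, adjusted p = 0.0248) in KO, 2.17 (SE 1.8, adjusted p = 0.657) in WT and, averaged over both, 3.97 (SE 1.15, adjusted p = 0.0363), and its size depends on the small number of fragments in the unconditioned groups. The KO call was lost without conditioned KO library 1 or 2 or unconditioned KO library 1 or 2 (adjusted p = 0.0723 to 0.0927, log2 change 5.28 to 6.13). With limma the KO value of Cxcl9 was 2.65 on log2(FPKM + 0.1) (adjusted p = 0.0449) and 0.84 on log2(FPKM + 1), where the call was lost (adjusted p = 0.0552), and with a filter of 1 CPM in 3 libraries Cxcl9 was not tested. The average lost its call with both limma fits (1.64 and 0.47, adjusted p = 0.0743 and 0.113). Of the 11 fits, the average kept its call without conditioned KO library 0 or conditioned WT library 2 and lay at 3.47 to 5.58 (adjusted p = 0.0607 to 0.123) in the 9 other fits that left out a library. In the authors' deposited table Cxcl9 is not called for the medium in KO (q = 0.657).

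Cxcl10 had 27, 74 and 180 fragments in conditioned KO libraries, against 15, 13 and 9 in unconditioned KO libraries. It had 46, 11 and 21 in conditioned WT libraries, against 20 and 12 in unconditioned ones. Conditioned KO lay above unconditioned KO in every library, with library 0 again the lowest, while the WT groups overlapped. The log2 change was 2.64 (SE 0.67, adjusted p = 0.0282) in KO, 6.23-fold, 0.65 (SE 0.76, adjusted p = 0.773) in WT and, averaged over both, 1.65 (SE 0.51, adjusted p = 0.0466). The KO call was lost without conditioned KO library 1 or 2 or unconditioned KO library 1 or 2 (adjusted p = 0.0796 to 0.107, change 1.87 to 2.75), and the average kept its call in only 2 of 11 such fits, those without conditioned KO library 0 or conditioned WT library 1, with a range of 1.26 to 1.86 over all 11. With the library number as a block the average was 1.67 and lost its call (adjusted p = 0.0554), and the KO value was 2.37 (adjusted p = 0.0482). The authors' deposited table calls Cxcl10 in KO (q = 0.0016) and not in WT (q = 0.638).

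Ccl5, a ligand known from antiviral responses, had 22, 30 and 43 fragments in conditioned KO libraries, against 11, 14 and 14 in unconditioned KO libraries, without overlap. In WT it had 9, 8 and 13 fragments in conditioned libraries, against 22 and 9 in unconditioned ones, with overlap. Ccl5 changed by log2 1.04 (SE 0.39, adjusted p = 0.0828) in KO cultures and by -0.65 (SE 0.45, adjusted p = 0.571) in WT. Without conditioned KO library 0 the KO value was 1.21 (SE 0.40) and passed the test (adjusted p = 0.0335).

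Cxcl12 was among the abundant genes and did not pass the test in any comparison with all libraries. It stood at 150, 132 and 78.1 CPM in conditioned KO, against 112, 267 and 335 CPM in unconditioned KO, and at 220, 236 and 105 CPM in conditioned WT, against 175 and 137 CPM in unconditioned WT. Unconditioned KO library 0 lay within the range of the conditioned KO libraries. For KO the log2 change was -0.99 (SE 0.42, adjusted p = 0.121), and for WT 0.26 (SE 0.47, adjusted p = 0.877). Without unconditioned KO library 0 the KO value was -1.33 and passed the test (adjusted p = 0.0325). Cxcl12 is the only one of the 10 genes with several transcripts in the authors' table, of 1878, 5670 and 3173 bases. The 1878-base transcript held 62.3 ± 2.12% of the gene's fragments in conditioned medium (SD, n = 6 libraries) and 63.1 ± 3.16% in unconditioned medium (n = 5), with a two-sided exact permutation p = 0.628. The 3173-base transcript held 33.2 ± 2.74% in conditioned and 34.0 ± 1.95% in unconditioned medium (exact p = 0.602). The long 5670-base transcript held 4.56 ± 1.55% in conditioned and 2.87 ± 1.29% in unconditioned medium (exact p = 0.0952, adjusted over the 3 transcripts 0.286). Within the genotypes the difference in share, conditioned minus unconditioned, was -3.01 percentage points in KO and 2.07 in WT for the 1878-base transcript, 1.26 in KO and -3.33 in WT for the 3173-base one, and 1.75 in KO and 1.26 in WT for the 5670-base one. For the first 2 of these the genotypes thus lay on opposite sides of 0, and none was called (exact p of 0.2 to 0.6, where 3 libraries against 3 cannot go below 0.10, nor 3 against 2). The authors' deposited table calls the 1878-base transcript changed by the medium in KO (q = 0.0016) and gives q = 1.0 for a change in splicing of Cxcl12 in all 4 pairs of groups.

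Cx3cl1, the membrane-bound chemokine, varied little between the groups. It had 54.3, 47.7 and 51.2 CPM in conditioned KO, against 53.0, 43.4 and 49.8 CPM in unconditioned KO, and 38.0, 31.9 and 57.8 CPM in conditioned WT, against 50.1 and 51.6 CPM in unconditioned WT. Its log2 change was 0.07 (SE 0.19, adjusted p = 0.824) in KO cultures and -0.26 (SE 0.21, adjusted p = 0.659) in WT.

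**Figure D3:**
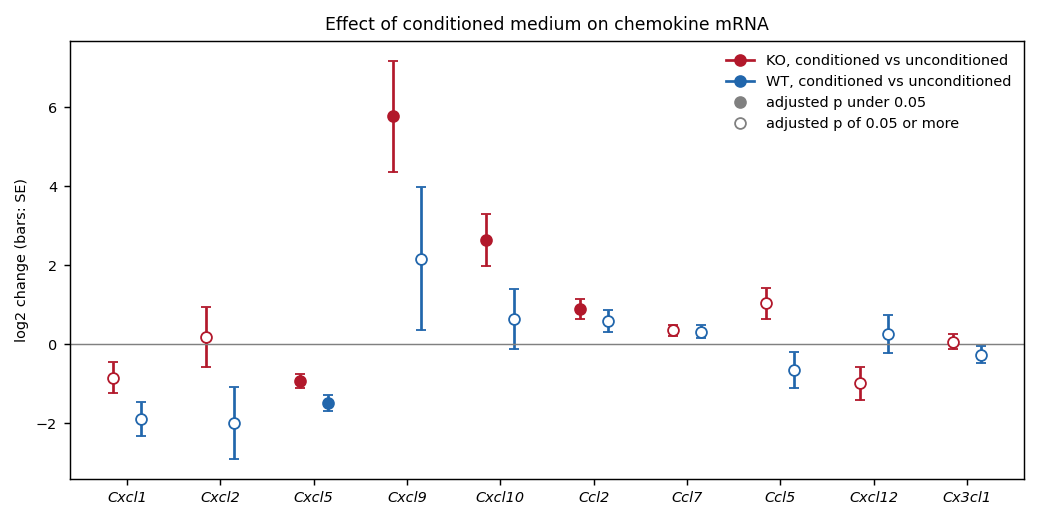
Log2 change in conditioned against unconditioned medium for each chemokine gene, with KO in red and WT in blue, error bars of 1 SE and filled points for an adjusted p under 0.05. Cxcl5 was called in both genotypes at -0.93 and -1.48, and Cxcl9 (5.77), Cxcl10 (2.64) and Ccl2 (0.89) were called in KO.

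KO and WT were compared within each medium, and the difference between their medium effects was tested as an interaction. In conditioned medium no member was called with all libraries, and no gene of the 13603 was (0.0%). Before adjustment 3 of the 10 members had a p under 0.05, DESeq2 called 0, and the smallest adjusted p of a member was 0.357. Ccl5 was the 1 member whose libraries did not overlap, with 1.37, 1.83 and 2.32 CPM in libraries labelled KO, against 0.579, 0.540 and 0.860 CPM in libraries labelled WT. Non-overlap held for 8.87% of all genes, 4.65% higher and 4.22% lower. Its log2 difference was 1.47 (SE 0.39, adjusted p = 0.357). The differences were 3.11 (SE 1.08) for Cxcl9, 1.64 (SE 0.63) for Cxcl10, 1.77 (SE 0.84) for Cxcl2 and 0.74 (SE 0.39) for Cxcl1, while Cxcl5 differed by 0.02 (SE 0.18). For Cxcl9 the summed fragments were 152 in libraries labelled KO and 15 in those labelled WT, a ratio of 9.50 with a counting interval of 5.58 to 17.4. That interval leaves out the variation between libraries. Conditioned KO library 0, with 4 fragments, lay within the range of conditioned WT, and the fitted difference was not called (adjusted p = 0.357).

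Without conditioned KO library 0, 4 members were called higher in KO, but 33.2% of all genes were then called as well. Cxcl9 stood at 3.66 (SE 0.78, adjusted p = 0.0082), Ccl5 at 1.65 (SE 0.41, adjusted p = 0.0143), Cxcl10 at 2.07 (SE 0.52, adjusted p = 0.0163) and Cxcl2 at 2.27 (SE 0.69, adjusted p = 0.0337). That library was also the lowest of its group in Cxcl2 (0.311 CPM, against 1.70 and 2.97), in Cxcl9 (0.249, against 4.63 and 3.88), in Cxcl10 (1.68, against 4.50 and 9.70) and in Ccl5 (1.37, against 1.83 and 2.32), and the highest in Cxcl12 (150, against 132 and 78.1). Its summed macrophage marker level was 129 CPM, against 91.6 and 51.5 CPM in libraries 1 and 2. The authors' deposited table, made with the authors' own test on all libraries, calls Cxcl1 (q = 0.0016), Cxcl9 (q = 0.00294), Cxcl10 (q = 0.00639), Cxcl2 (q = 0.0275) and Ccl5 (q = 0.0421) different between KO and WT in conditioned medium.

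**Figure D4:**
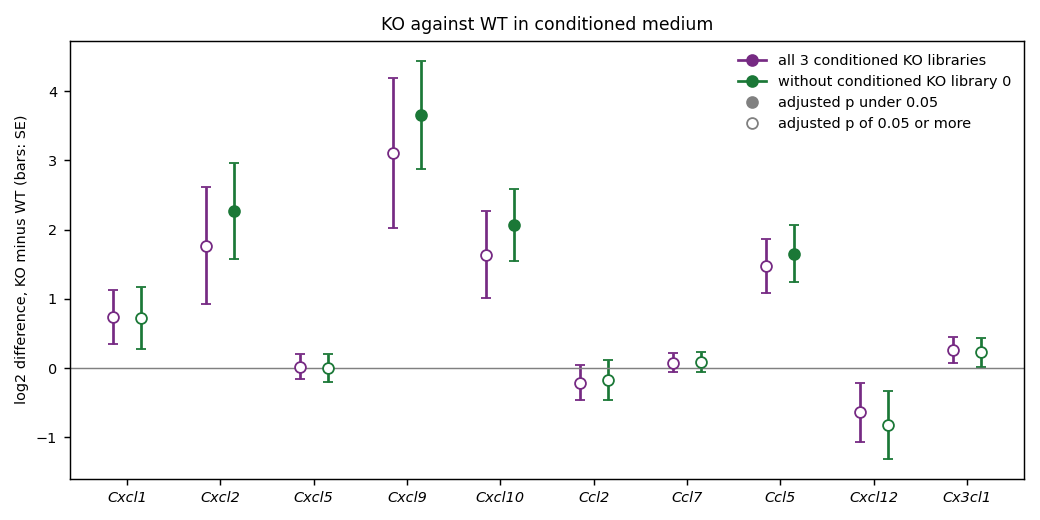
Log2 difference between KO and WT in conditioned medium for each chemokine gene, with all libraries (purple) and without conditioned KO library 0 (green), error bars of 1 SE and filled points for an adjusted p under 0.05. Cxcl9, Ccl5, Cxcl10 and Cxcl2 were called only without that library, at 3.66, 1.65, 2.07 and 2.27, and Cxcl5 lay at 0.02 with all libraries.

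In unconditioned medium no member was called between KO and WT, where 0.00735% of all genes were (0.00737% without conditioned KO library 0). Every member had an adjusted p of 0.998, 1 of them had an unadjusted p under 0.05, and DESeq2 called 0. Cxcl5 was the 1 member without overlap (17.1% of all genes, 9.12% higher and 8.01% lower), with 524, 431 and 366 CPM in libraries labelled KO, against 594 and 677 CPM in libraries labelled WT, and a log2 difference of -0.53 (SE 0.20). Ccl2 differed by -0.51 (SE 0.28) and Cxcl12 by 0.61 (SE 0.48). The interaction was called for 0 of the 10 members and 0.0% of all genes (0 members and 10.5% of all genes without conditioned KO library 0), with 1 member under an unadjusted p of 0.05 and 0 called by DESeq2. The largest differences in medium effect were 3.60 (SE 2.98) for Cxcl9, 2.16 (SE 1.19) for Cxcl2, 1.99 (SE 1.0) for Cxcl10 and 1.69 (SE 0.59) for Ccl5, on the log2 scale. The smallest adjusted p was 0.819. A medium effect called in KO and not in WT is therefore not shown to differ between the genotypes.

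The level of 1 chemokine gene across the 11 libraries was compared with that of the others as a description, in which the 4 groups and library depth are shared by all genes. Among the members, Cxcl1 and Cxcl5 were most alike (Pearson r = 0.88, log2 CPM), then Cxcl9 and Cxcl10 (0.80), while Cxcl5 ran against Cxcl9 (-0.66) and Ccl7 (-0.64). Among all tested genes, those most like Cxcl1 were the clock gene Per2 (0.95), the transcriptional repressor Rest (0.935) and Nfkbiz (0.931), a nuclear regulator of NF-kB. Those most like Cxcl12 were the lysophosphatidic acid receptor Lpar1 (0.972), Nrep (0.967) and the growth factor Igf1 (0.95). For Ccl2 they were Slc6a15 (0.984), Dynll2 (0.981) and Prosc (0.975), and for Cxcl5 Fam131b (0.967), Fam46b (0.961) and Rnf180 (0.954). For Ccl7 the first was Fcer1g (0.938), a receptor chain of myeloid cells. The first were Mtmr9 for Cxcl9 (0.995), Mrpl54 for Cxcl10 (0.976), Ankrd13c for Cxcl2 (0.941), Zfp189 for Ccl5 (0.932) and Crlf3 for Cx3cl1 (0.877).

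Of the other chemokines, 12 of the 28 genes in the table were abundant enough to test. In KO 1 was higher and 1 lower in conditioned medium, a share close to the 18.3% of all genes, and in WT 0 were called (1.78% of all genes). Ccl8, a further monocyte attractant, rose in KO (log2 2.52, SE 0.68, adjusted p = 0.0335) and stood at 2.26 ± 1.27 CPM in conditioned KO, 0.386 ± 0.31 in unconditioned KO, 3.18 ± 1.54 in conditioned WT and 0.945 ± 0.15 in unconditioned WT. Cxcl14, which is expressed by many stromal and epithelial cells, fell in KO (-2.35, SE 0.56, adjusted p = 0.0228), at 278 ± 158 CPM in conditioned KO, 1420 ± 763 CPM in unconditioned KO, 328 ± 135 CPM in conditioned WT and 737 ± 54.2 CPM in unconditioned WT. The receptors of the 10 chemokines were mostly at low counts in the cultures. Ccr2 and Cxcr3 had 0 fragments in every library, Cxcr2 and Ccr3 0 or 1, Ccr1 4 to 33, Cx3cr1 0 to 4 and Cxcr4 9 to 26, whereas the scavenger Ackr3 had 1016 to 2278. Of 6 receptor genes tested, 1 was called for the medium in KO (18.3% of all genes), the scavenging receptor Ackr1, which rose (1.64, SE 0.38, adjusted p = 0.0209).

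Genes that act upstream of these chemokines were listed too. Of 16 tested cytokines, toll-like receptors and cytokine receptors, 2 rose and 2 fell in KO (9.68% and 8.58% of all genes), and 1 rose and 1 fell in WT (1.23% and 0.551%). The interleukin-1 receptor Il1r1 fell in KO (-1.68, SE 0.24, adjusted p = 0.0054) and in WT (-1.24, SE 0.26, adjusted p = 0.0460), at 114 ± 38.2 CPM in conditioned KO against 366 ± 75.6 CPM in unconditioned KO, and 144 ± 15.9 CPM in conditioned WT against 340 ± 29.8 CPM in unconditioned WT. Il1rn, the secreted antagonist of that receptor, fell in KO (-3.64, SE 0.70, adjusted p = 0.0114), at 2.08 ± 0.809 CPM in conditioned KO against 26.1 ± 19.6 CPM in unconditioned KO. The lipopolysaccharide receptor Tlr4 rose in KO (0.94, SE 0.15, adjusted p = 0.0075) and in WT (0.86, SE 0.17, adjusted p = 0.0436), and the double-stranded RNA receptor Tlr3 rose in KO (1.31, SE 0.30, adjusted p = 0.0206). On average Il17ra, a receptor chain for interleukin-17, fell (-0.45, SE 0.12, adjusted p = 0.0241), and Tnfrsf1b, a receptor of tumour necrosis factor, rose (0.33, SE 0.06, adjusted p = 0.00625). Ifnb1, Ifng and Il17a had 0 fragments in every library, Il1b 0 or 1 and Tnf 0 to 5.

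All 16 listed genes of the NF-kB pathway were tested. In KO 1 rose and 3 fell, where 9.68% and 8.58% of all genes did, in WT 0 were called, where 1.78% were, and on average 0 rose and 3 fell, where 10.4% and 10.1% of all genes did. Nfkbib, an inhibitor of NF-kB, rose in KO (1.13, SE 0.30, adjusted p = 0.0324). Nfkb1, a subunit of the factor, fell in KO (-0.54, SE 0.12, adjusted p = 0.0200), as did the coregulator Bcl3 (-0.89, SE 0.17, adjusted p = 0.0114) and the ubiquitin ligase Birc3 (-0.43, SE 0.13, adjusted p = 0.0499). Nfkbiz fell on average (-0.68, SE 0.20, adjusted p = 0.0361). Of 10 genes for chemokine mRNA decay and protein cleavage, the mRNA decay factor Zfp36l1 alone was called, on average, lower (-0.52, SE 0.12, adjusted p = 0.0172). This share is close to the 10.1% of all genes called lower on average.

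Of 14 listed interferon-stimulated genes, 13 rose in KO (median log2 3.68 over the 14, against 0.02 over all genes) where 9.68% of all genes did. Among them were Gbp2, Ifit1, Ifit3, Irf7, Irf9, Isg15, Mx1, Mx2, Oasl2, Rsad2, Stat2 and Usp18. In WT 0 of the 14 were called, where 1.78% of all genes were, with a median of 1.97. On average over both genotypes 13 rose, where 10.4% of all genes did. The list was chosen with earlier results of these data known, so these counts beside those of all genes are a description and not a test. The list summed to 499 to 1790 CPM in conditioned KO, 196 to 257 in unconditioned KO, 308 to 759 in conditioned WT and 197 to 256 in unconditioned WT. The antiviral gene Ifit1 changed by 5.14 (SE 0.85, adjusted p = 0.00795) in KO, against 2.32 (SE 0.88, adjusted p = 0.237) in WT. The interferon regulatory factor Irf7 changed by 2.15 (SE 0.34, adjusted p = 0.00696) in KO, against 1.67 (SE 0.39, adjusted p = 0.0602) in WT. No gene of this list was called between KO and WT in conditioned medium (median 1.35) or in the interaction, where 0.0% of all genes were.

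Markers of other cell types were followed in the same fits. Over all genes 9.68% rose and 8.58% fell with the medium in KO. Of 11 macrophage and myeloid genes tested, 1 was called for the medium in KO, Cybb, a subunit of the phagocyte oxidase (2.63, SE 0.78, adjusted p = 0.0442, 0 to 37 fragments per library), and the list's median was 0.51 in KO and 0.47 in WT. Of 4 endothelial markers tested, Kdr, Tek and Vwf rose in KO (2.29, 1.27 and 1.54, adjusted p = 0.0410, 0.0385 and 0.0388) and Cdh5 was not called (0.74, adjusted p = 0.14), while Pecam1 had 1 to 7 fragments and Emcn 0 to 2. The endothelial list summed to 8.96 to 16.1 CPM in conditioned KO, 4.16 to 6.62 in unconditioned KO, 10.4 to 16.2 in conditioned WT and 7.16 to 8.25 in unconditioned WT. Neutrophil markers summed to 0.540 to 3.24 CPM and those of T and B cells to 0.108 to 0.684 CPM over all libraries, with Mpo and Elane at 0. Of 9 osteoblast markers tested, Alpl, the bone-type alkaline phosphatase, fell in KO (-1.68, SE 0.47, adjusted p = 0.0366) and Bglap2, an osteocalcin gene with 0 to 41 fragments, rose (3.21, SE 0.90, adjusted p = 0.0367). The part of these lists in the chemokine results was not tested.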

How the data were processed

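RNA of 12 calvarial osteoblast samples was sequenced from libraries made with the TruSeq RNA v2 kit, per the labels' protocols. This kit keeps no strand. CASAVA 1.8.2, TopHat2 2.0.9 and Cufflinks with Cuffdiff 2.1.1 were used on GRCm38 (mm10), per the submitters' processing notes. The fragments per gene and library in the authors' table are expected counts (94.3% whole), per the file headers and their size. The deposited FPKM values are scaled by length and depth by the authors. The deposited tests give q-values (adjusted p-values), used as printed. Other deposited columns, such as transcript length, are described per the file headers. Table starts count from 0 (6651 gene starts lay 1 base before an annotated start, against 675 on one), so 1 was added.

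After rounding, edgeR 4.0.16 (R 4.3.3) was run on the fragments (TMM, filterByExpr with a minimum count of 10, robust quasi-likelihood) in 1 fit of 4 groups, 11 libraries (the near-identical pair entered as its mean) and 13603 genes, with 7 residual degrees of freedom. The 1714 genes without a symbol (2.69% to 3.10% of fragments) were left out. P-values were adjusted by Benjamini-Hochberg, in each comparison over the 13603 genes, and a value under 0.05 is called. Standard errors were derived from the F statistic, as the log2 change over its root. The scripts were tested on simulated data. Cxcl12 transcript shares were tested by exact permutation (SciPy 1.17.1). Alternatives used DESeq2 1.42.0, RLE factors, other filters, limma 3.58.1 on log2(FPKM + 0.1) and log2(FPKM + 1), a replicate block, all 12 libraries, and each library left out. The typical biological coefficient of variation was 0.238.

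Groups follow the sample titles and genotype labels, and the table numbers its libraries 0 to 2 without a source tying them to titles. The labels do not tell whether the samples of a group came from separate animals, and the p-values reflect only how far these samples vary. The members and lists were chosen with earlier results of these data known. Named are all members, each listed gene called in any of the 6 comparisons and, per member, the tested genes most alike in log2 CPM. In the list of macrophage markers Lyz1 and Lyz2 share 1 table entry and count once, and Ccl19 has 2 entries. Deviations from the group means of same-numbered libraries correlated at 0.354, 0.241 and 0.317 in KO, which was taken to pair them there, although conditioned library 1 was closer to unconditioned library 2 (0.283). In WT the values were -0.146 and 0.438, and with 2 unconditioned libraries, whose deviations mirror each other, pairing could not be judged. The replicate block was therefore read beside the unblocked fit.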

Additional observations from a re-analysis of the deposited data

How the results depend on the processing

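For the average medium effect 6 of 10 chemokine genes were called, as also with DESeq2, RLE factors and all 12 libraries, 5 with the 1 CPM filter, where Cxcl9 was not tested, 4 without a filter on low counts, and 3 with limma on log2(FPKM + 0.1) or log2(FPKM + 1), where Cxcl9, Cxcl10 and Ccl7 were lost. The count for the medium effect in WT was 1, and 2 with DESeq2 or with all 12 libraries as separate samples, where Cxcl1 was added. Over all genes the average effect was called for 2787 of 13603 in the main fit, 3599 of 14643 with DESeq2 and 2760 of 13603 with RLE factors. All 12 libraries gave 4053 of 13395, the 1 CPM filter 2760 of 12893 and no filter 2491 of 18108. The limma fits tested 14670 genes and called 2540 and 2467. In WT DESeq2 called 866 genes and all 12 libraries 923, against 242 in the main fit. Leaving out a library each gave 0 to 5 members for the medium effect in KO (4 with all libraries), 0 to 2 in WT, 2 to 6 for the average, 0 to 4 for KO against WT in conditioned medium, and 0 in unconditioned medium and for the interaction. The cause was not tested, though a fit without a library has fewer samples. Without conditioned KO library 0 the share of all genes called for the medium effect was 44.9% in KO, 6.75% in WT and 41.6% on average, and for the interaction 10.5%. Over all 11 such fits the genes called ranged from 319 to 6094 in KO (2484 with all libraries), 0 to 916 in WT (242) and 1215 to 5652 on average (2787). With a replicate block the members called were 4 in KO, 1 in WT, 5 on average, where Cxcl10 was lost (adjusted p = 0.0554), and 0 for the interaction. The block changed no other call of a member, and over all genes it called 2213 in KO, 155 in WT and 2602 on average. Without a filter on low counts Cxcl10 and Ccl7 lost their average call (adjusted p = 0.0501 and 0.0600). Signs reversed for Cxcl2 in KO with limma on log2(FPKM + 0.1) (-0.05), for Ccl7 between KO and WT in unconditioned medium with both limma fits (-0.01) and for its interaction under the replicate block (-0.04), and for Cxcl12 in WT under the block (-0.03). Leaving out libraries, none of the members whose sign reversed had been called: Cxcl2 (-0.54 to 0.95) and Cx3cl1 (-0.01 to 0.13) in KO, Cxcl10 (-0.02 to 1.01) and Ccl5 (-1.12 to 0.07) in WT, Ccl5 on average (-0.04 to 0.55), between KO and WT in unconditioned medium Cxcl1 (-0.73 to 0.02), Cxcl9 (-1.38 to 2.73), Cxcl10 (-0.63 to 0.01), Ccl5 (-0.69 to 0.50), Ccl7 (-0.10 to 0.12) and Cx3cl1 (-0.13 to 0.02), in conditioned medium Cxcl5 (-0.11 to 0.21) and Ccl7 (-0.01 to 0.18), and the Ccl7 interaction (-0.05 to 0.19). The Cxcl12 share differences, in percentage points, ranged from -1.74 to 0.0151 for the 1878-base transcript (-0.788 with all), -1.55 to 0.0881 for the 3173-base one (-0.893) and 1.11 to 2.09 for the 5670-base one (1.68). Depth limits Cxcl9, Ccl5, Cxcl2 and Cxcl10, whose libraries held 0 to 180 fragments.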
